A study of Mus musculus with 23 samples.

Results

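The 10 genes described here encode the immunophilin FKBP51 (Fkbp5) and 9 chaperones and co-chaperones that handle the glucocorticoid receptor (GR), namely Fkbp4, Ppid, Hsp90aa1, Hsp90ab1, Ptges3, Stip1, Hspa8, Dnajb1 and Bag1. They were chosen by name, as the rows of the count table whose Ensembl identifiers carry these symbols in the GENCODE M21 annotation, which gave 10 of 55487 rows. All 10 passed the filter on low counts that left 15748 genes for testing. Expression was measured by RNA sequencing in 23 libraries of primary mouse embryonic fibroblasts (MEFs), connective tissue cells grown here from midgestation FVB/NJ embryos, each culture from a different animal. Before harvest the cells received either solvent (vehicle) or the synthetic GR agonist dexamethasone (Dex), at 10 nM, for 5 h. The receptor was unmodified (GRwt/wt), had threonine in place of alanine where the DNA-binding domains of a dimer meet (GRD/D), had alanine in place of isoleucine in the domain that binds ligand (GRL/L), or had both substitutions (GRD+L/D+L). The 8 groups held 3 libraries each, except GRD/D vehicle with 2. The GRL and GRD+L alleles were made by CRISPR/Cas editing of zygotes that already carried GRD on 1 allele, and mice homozygous for either die around birth.

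Total counts per library ran from 16452539 to 23117080, and levels are given as CPM, the count scaled to the library's total and corrected by its TMM factor. All 9 fibroblast markers examined had a median of at least 10 CPM, and all 6 epithelial, 4 of 5 muscle and 3 of 5 endothelial markers had one under 1 CPM. Of 11 macrophage markers, however, 4 had a median of at least 10 CPM and 0 had one under 1 CPM, and of 4 neural markers 1 was at each end. One library stood apart from the rest, GRwt/wt vehicle replicate 1, whose highest Spearman correlation with any other library was 0.916 where each of the other 22 reached at least 0.973, and comparisons that use it are therefore also given without it. The library at 0.973 was GRwt/wt Dex replicate 1. A second library, GRwt/wt vehicle replicate 3, held 4985 CPM summed over 11 macrophage markers, whereas the sum was 17.1 to 102 CPM in the rest of that genotype. In such bulk samples, fewer cells of a type and less RNA per cell cannot be told apart. The transcript of the receptor itself, Nr3c1, was at 44.5 to 88.0 CPM in the GRwt/wt libraries other than vehicle replicate 1, which held 4.08 CPM. It was at 90.2 to 107 CPM in GRD/D, at 131 to 138 CPM in GRL/L and at 119 to 265 CPM in GRD+L/D+L.

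The unliganded receptor folds in a relay of chaperones. Hsc70 (Hspa8), helped by a J-domain protein such as Hsp40 (Dnajb1), takes the receptor first, and the nucleotide exchange factor Bag1 releases it. The adaptor HOP (Stip1) passes it to HSP90, made from the genes Hsp90aa1 and Hsp90ab1, and p23 (Ptges3) then holds HSP90 in the closed state in which the receptor binds hormone with high affinity. Immunophilins with tetratricopeptide repeats, FKBP51, FKBP52 (Fkbp4) and cyclophilin 40 (Ppid), complete the complex by docking on HSP90. FKBP51 lowers the receptor's hormone affinity and slows its movement to the nucleus, whereas FKBP52 couples the receptor to dynein. Fkbp5 is at the same time one of the best known GR target genes, so that FKBP51 acts in a short negative feedback loop, and the response elements known for it lie in introns and far upstream.

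The start regions of Fkbp5 and Fkbp4 are shown because the products of these genes act in opposite ways on GR while their transcripts differed in their response to Dex. Each window runs from 250 bases before to 50 bases after the RefSeq transcription start (GRCm38.p6, minus strand, 5′ to 3′). In the GENCODE annotation the Fkbp5 gene spans chr17:28399094-28517527, which reaches further upstream than this start, and Fkbp4 spans chr6:128429735-128438677. The capitals mark CCAAT boxes on either strand and, in Fkbp4, the heat shock element pair GAANNTTC.
Fkbp5, chr17:28486100-28486399: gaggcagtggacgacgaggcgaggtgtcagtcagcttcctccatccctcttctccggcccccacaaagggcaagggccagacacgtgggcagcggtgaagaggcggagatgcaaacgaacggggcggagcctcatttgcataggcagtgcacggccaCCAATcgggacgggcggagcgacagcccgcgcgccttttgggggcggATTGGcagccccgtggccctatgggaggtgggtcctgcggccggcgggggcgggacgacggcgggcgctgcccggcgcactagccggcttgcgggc
Fkbp4, chr6:128438607-128438906: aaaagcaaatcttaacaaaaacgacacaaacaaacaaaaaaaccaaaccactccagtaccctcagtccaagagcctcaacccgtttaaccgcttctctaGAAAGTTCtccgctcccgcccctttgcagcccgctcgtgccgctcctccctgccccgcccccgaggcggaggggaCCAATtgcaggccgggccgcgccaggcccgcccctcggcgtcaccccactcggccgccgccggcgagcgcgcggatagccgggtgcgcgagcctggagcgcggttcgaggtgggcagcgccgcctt
The Fkbp5 window held 2 CCAAT boxes, at 93 and 46 bases before the start, the second on the opposite strand. CCAAT occurs in 37.4% of the 32851 mouse windows of this length. The Fkbp4 window held 1 CCAAT box and 1 GAANNTTC pair, whose letters occur in 7.86% of the windows. Windows were at hand for 6 of the 10 genes (Fkbp5, Fkbp4, Ptges3, Stip1, Dnajb1 and Bag1). In none of them did a glucocorticoid response element occur, either as AGAACA and TGTTCT set 3 bases apart or as the looser pair GNACA and TGTNC with the same spacing, searched on both strands, which 0.00913% and 0.475% of all windows held. Each such match is a match of letters only, and the introns and distal regions were not searched.

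Some of these genes have near-identical processed pseudogenes, which matters because only uniquely mapped reads were counted. Of all stretches of 50 bases in the transcripts, 47.5% in Hsp90aa1, 39.4% in Hspa8, 19.6% in Ptges3 and 11% in Ppid also occurred in transcripts of other genes, so the levels of these 4 genes are uncertain. The share was 5.59% in Stip1, 3.44% in Hsp90ab1 and lower still in the other 4 genes, with 0.684% in Fkbp5.

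Scaled to transcript length, the order of the 10 genes was steep. Over the 22 libraries other than GRwt/wt vehicle replicate 1, Hsp90ab1, the constitutive HSP90 gene, had a median of 624 CPM per kb, and Hspa8, the constitutive HSP70 gene, had 194 CPM per kb. Bag1 followed at 75.0, Hsp90aa1 at 65.8 and Stip1 at 54.4 CPM per kb, and the ranges of these neighbours overlapped. Ptges3 at 37.2 and Fkbp4 at 27.8 CPM per kb also overlapped, as did Dnajb1 at 18.6 and Ppid at 12.4 CPM per kb. Fkbp5 was last with a median of 3.26 CPM per kb, and its range, from 2.04 to 40.6 CPM per kb, crossed those of 4 of the other genes. Lengths are those of all annotated exons joined, 9468 bases for Fkbp5, which lowers the per-kb level of a gene with long alternative exons. Fkbp5 was also the most variable of the 10, with a standard deviation of 1.35 on the log2 scale over these 22 libraries, against 0.138 (Ptges3) to 0.423 (Ppid) for the other 9.

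**Figure D1:**
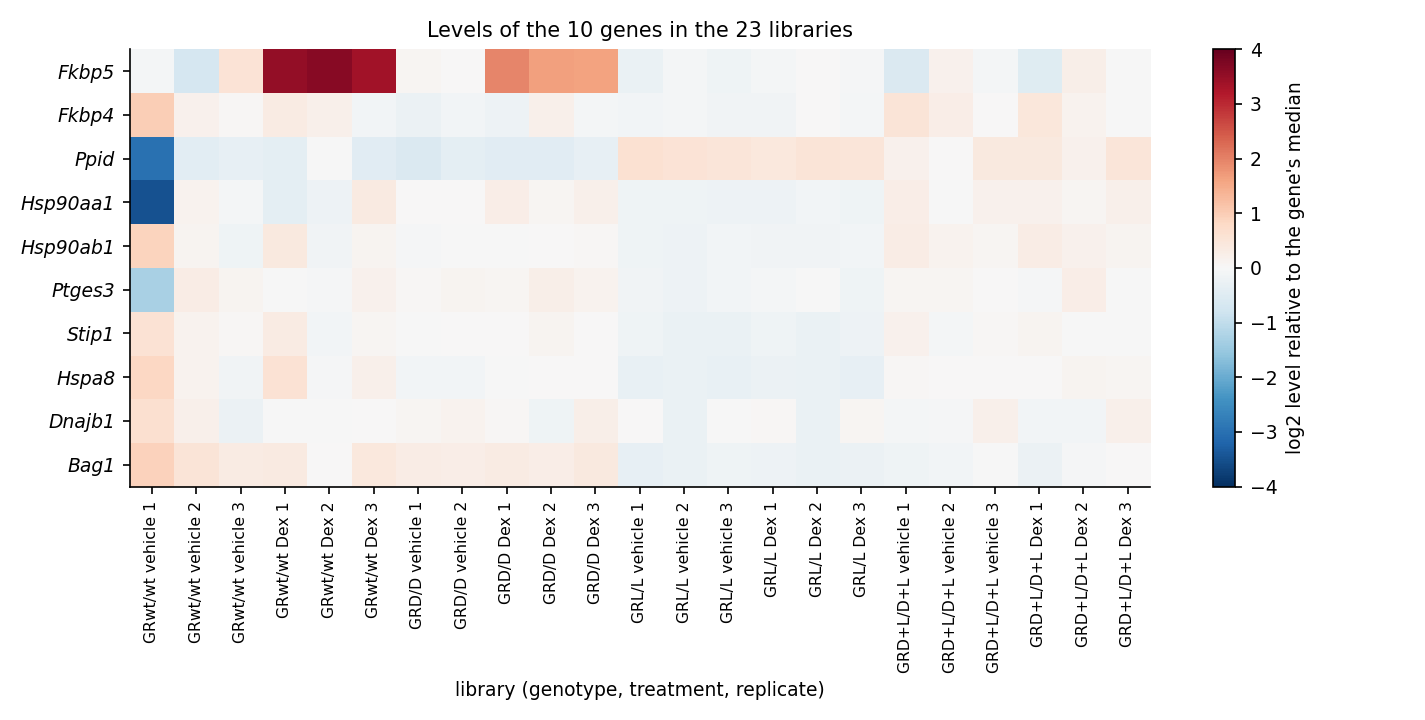
Level of each of the 10 genes (rows) in each of the 23 libraries (columns, by genotype, treatment and replicate), as log2 CPM minus the median of that gene over the libraries, red for higher and blue for lower. Fkbp5 stands out in the GRwt/wt Dex and GRD/D Dex libraries, and GRwt/wt vehicle replicate 1 is the lowest library for Ppid, Hsp90aa1 and Ptges3.

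In GRwt/wt vehicle replicate 1 the chaperones did not move together. Hsp90aa1 was at 23.1 CPM there against 196 to 330 CPM in the other 22 libraries. Ppid was at 6.79 CPM against 36.4 to 81.9 CPM, and Ptges3 at 32.9 CPM against 70.5 to 100.4 CPM. The same library was the highest of the 23 for 6 genes, with Hsp90ab1 at 3471 CPM against at most 2465, Hspa8 at 1477 against at most 1240, and Fkbp4 at 153 against at most 111 CPM. Fkbp5, at 28.9 CPM, lay between the other 2 libraries of its group. The 5 muscle markers summed to 210 CPM in this library and 140 CPM in GRwt/wt Dex replicate 1, against 1.60 to 19.5 CPM elsewhere. Des, the desmin gene, carried this sum, since each of the other 4 (Myod1, Myog, Myh3 and Ckm) was at most at 0.499 CPM in any library and at 0 in vehicle replicate 1. The part of Des-expressing cells in these levels was not tested. Of the other 22 libraries, GRwt/wt Dex replicate 1 was the lowest for Hsp90aa1, at 196 CPM, and the highest for Hsp90ab1, at 2465 CPM, and Hspa8, at 1240 CPM. Without it the log2 fold changes with Dex in GRwt/wt were 3.51 for Fkbp5 (adjusted p = 2.2e-05), 0.62 for Hsp90aa1, −0.30 for Hsp90ab1 and −0.21 for Hspa8, the last 3 not past the test.

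The first question was whether Dex changed these genes in cells with the unmodified receptor. Fkbp5 rose strongly and the other 9 genes did not pass the test. Fkbp5 was at 28.9, 19.3 and 44.9 CPM in the 3 GRwt/wt vehicle libraries and at 350, 384 and 311 CPM in the 3 Dex libraries. The groups did not overlap, the lowest Dex library being far above the highest vehicle library, which is the one with the macrophage markers, and 9.46% of all genes did not overlap in this comparison (19.5% without vehicle replicate 1). The means were 31.0 ± 12.9 (SD, n = 3) and 348 ± 36.9 CPM (SD, n = 3), an 11.2-fold difference (log2 fold change 3.49, SE 0.27, 95% confidence interval 2.93 to 4.05, edgeR quasi-likelihood test, adjusted p = 2.7e-06). Without vehicle replicate 1 the log2 fold change was 3.43 (adjusted p = 2.8e-05). When only the 6 GRwt/wt libraries were fitted, the size was the same, at 3.50, but the adjusted p was 0.46. A gene is called here where its adjusted p did not exceed 0.05 and its log2 fold change was at least 1 in size. Fkbp5 was thus 1 of 10 genes called, against 0.159% of all genes tested, and it was also the only 1 past an adjusted p of 0.05 alone, which 0.222% of all genes passed with all libraries and 0.944% without vehicle replicate 1.

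**Figure D2:**
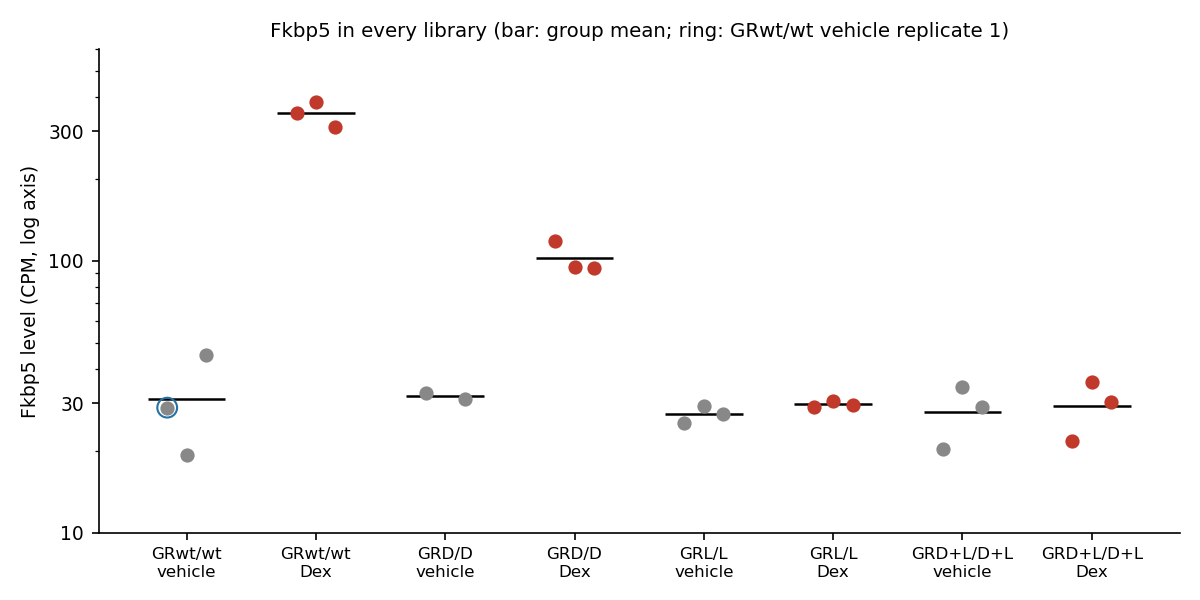
Fkbp5 level in CPM on a log axis for the 23 libraries by group, grey for vehicle and red for Dex, with the group mean as a bar and GRwt/wt vehicle replicate 1 ringed. The 3 GRwt/wt Dex libraries sit between 311 and 384 CPM, the 3 GRD/D Dex libraries between 93.9 and 118 CPM, and all others at or below 44.9 CPM.

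In GRD/D cells Fkbp5 was at 32.6 and 31.1 CPM in vehicle and at 118, 94.8 and 93.9 CPM under Dex. Every Dex library was above both vehicle libraries, as in 21.3% of all genes, in one direction or the other, in this comparison of 3 with 2. The difference was 3.21-fold (log2 fold change 1.68, SE 0.29, interval 1.08 to 2.29), with an unadjusted p of 1.7e-05 in the edgeR fit but an adjusted p of 0.14, so Fkbp5 was not called and neither was any other gene (0%). The call depended on the tool and on which libraries shared the estimate of spread. DESeq2 gave an adjusted p of 4.1e-05, a fit limited to the 5 GRD/D libraries gave 0.047 and the fit without GRwt/wt vehicle replicates 1 and 3 gave 0.0035, all with the same size of 1.68.

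In GRL/L cells Fkbp5 was at 25.3, 29.2 and 27.3 CPM in vehicle and at 29.0, 30.5 and 29.5 CPM under Dex, and the groups overlapped. The log2 fold change was 0.12 (interval −0.39 to 0.64). In GRD+L/D+L cells it was at 20.3, 34.4 and 29.0 CPM in vehicle and at 21.7, 35.9 and 30.2 CPM under Dex, and again the groups overlapped, with a log2 fold change of 0.07 (interval −0.45 to 0.58). No gene of the 15748 was called in either comparison (0% in both), and of the 10 genes none reached an unadjusted p of 0.05 in edgeR and none was called by DESeq2. In both genotypes same-numbered vehicle and Dex libraries varied together, and Fkbp5 was higher under Dex in all 6 pairs, as 3.55% of all genes were higher or lower in all 6. With the replicate number as a block in a fit of these 2 genotypes alone, the standard errors fell to 0.066 and 0.067 and the log2 fold changes were 0.13 and 0.07 (adjusted p = 1.0 and 0.83).

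The difference of the Dex response between genotypes was tested directly. The log2 fold change of Fkbp5 in GRL/L minus that in GRwt/wt was −3.37, with an SE of 0.35 and an edgeR adjusted p of 0.00036. For GRD+L/D+L the corresponding difference was −3.42, again with an SE of 0.35, at an adjusted p of 0.00029. When only the 2 genotypes compared were fitted, the call for GRD+L/D+L was lost (−3.44, adjusted p = 0.31). Only 0.0254% of all genes were called in each of these comparisons, and the other 9 genes were not. In GRD/D the difference from GRwt/wt was −1.81 (SE 0.36, interval −2.57 to −1.04), with an unadjusted p of 0.0001 but an adjusted p of 0.47 and no gene called (0%). Leaving out GRwt/wt vehicle replicate 3, where Fkbp5 was highest, made that difference −2.22 (adjusted p = 0.018), and DESeq2 gave −1.84 (adjusted p = 0.0054). The response in GRD/D exceeded that of GRL/L by 1.56 (interval 0.78 to 2.34) and that of GRD+L/D+L by 1.61 (interval 0.83 to 2.40), each with an adjusted p of 1.0 and 0% of genes called, and unadjusted p of 0.00056 and 0.00041. DESeq2 called none of the 10 genes in either (adjusted p for Fkbp5 = 0.43 and 0.091), whereas a fit of GRD/D and GRL/L alone called Fkbp5 between these (1.55, adjusted p = 0.0050). Between GRD+L/D+L and GRL/L the response differed by −0.05 (interval −0.78 to 0.67, 0% of genes called, and 0 of the 10 genes with an unadjusted p under 0.05 in edgeR or a call by DESeq2).

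Levels under Dex gave the order of the genotypes more precisely than the differences of responses. Under Dex, Fkbp5 was 3.41-fold lower in GRD/D than in GRwt/wt (log2 difference −1.77, SE 0.25, adjusted p = 0.0038) and 11.7-fold lower in GRL/L (−3.55, SE 0.27, adjusted p = 1.0e-06). The difference of GRD+L/D+L from GRwt/wt was 11.9-fold (−3.57, SE 0.27, adjusted p = 2.0e-06). Fkbp5 was the only 1 of the 10 genes called in each, where 0.254%, 2.59% and 2.75% of all genes were. These 3 comparisons share the GRwt/wt Dex libraries. Without GRD/D Dex replicate 3, the adjusted p for GRD/D was 0.062, and when only the GRwt/wt and GRD/D libraries were fitted it was 0.10. Against GRD/D, where GRwt/wt libraries enter only the estimate of spread, Fkbp5 under Dex was 3.45-fold lower in GRL/L (log2 difference −1.79, adjusted p = 0.00063) and GRD+L/D+L was 3.49-fold below GRD/D (−1.81, adjusted p = 0.00084). The comparisons of levels between mutants were added after the values had been seen. The neighbours in this order, GRL/L and GRD+L/D+L, were −0.02 apart (interval −0.53 to 0.49). In vehicle the 4 genotypes were not separated, with log2 differences from GRwt/wt of 0.04 in GRD/D (interval −0.53 to 0.61), −0.19 in GRL/L (−0.70 to 0.33) and −0.15 in GRD+L/D+L (−0.67 to 0.36). The macrophage markers summed to 276 to 1750 CPM in GRD/D, to 314 to 775 CPM in GRL/L, and to 8.10 to 102 CPM in GRD+L/D+L and in GRwt/wt other than vehicle replicate 3, and their part in the Fkbp5 level was not tested.

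Because FKBP51 and FKBP52 compete for the same site on HSP90, the ratio of their transcripts was taken in each library, both as CPM per kb. Fkbp5 reached 1.06, 1.27 and 1.26 times the Fkbp4 level in the GRwt/wt Dex libraries, from 0.055, 0.065 and 0.164 in vehicle. In GRD/D the ratio was 0.144 and 0.126 in vehicle and 0.516, 0.313 and 0.374 under Dex. It stayed between 0.102 and 0.121 in the 6 GRL/L libraries and between 0.054 and 0.123 in the 6 with both substitutions, in vehicle and Dex alike. The ratio exceeded 1 in the 3 GRwt/wt Dex libraries and in none of the other 20, which depends on the long joined exons taken for Fkbp5. In CPM, not scaled to length, Fkbp5 also exceeded Fkbp4 in the 3 GRD/D Dex libraries, at 118, 94.8 and 93.9 against 67.5, 89.3 and 74.1 CPM. The ratio of Hsp90aa1 to Hsp90ab1, by contrast, was 0.0051 in GRwt/wt vehicle replicate 1, 0.061 in GRwt/wt Dex replicate 1 and 0.093 to 0.128 in all the others.

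**Figure D3:**
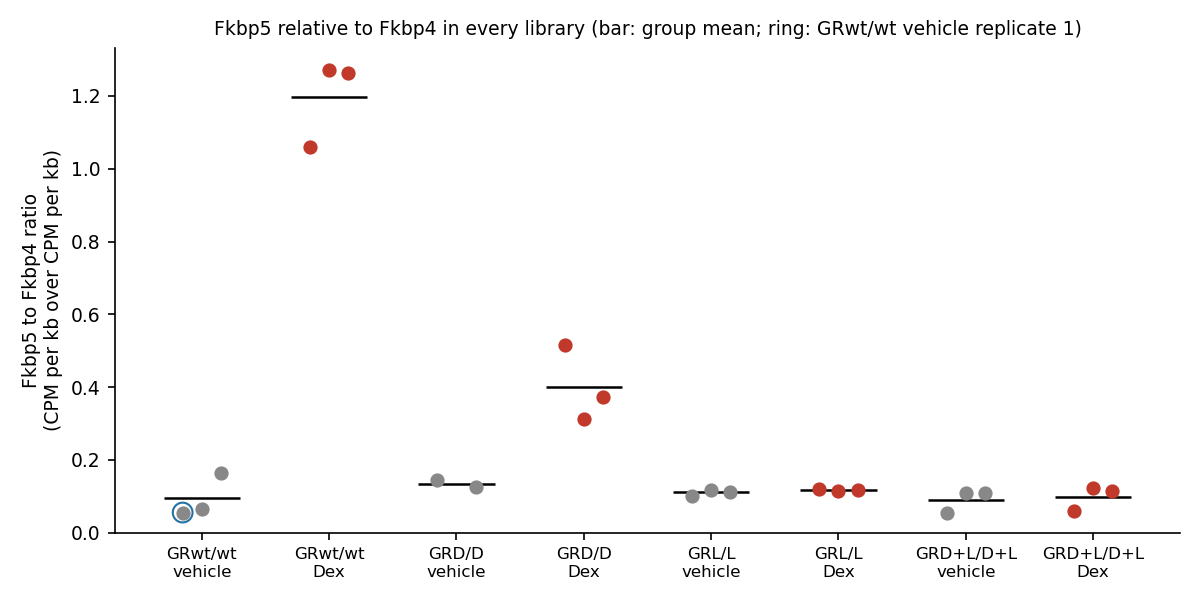
Ratio of Fkbp5 to Fkbp4, each in CPM per kb, in the 23 libraries by group, grey for vehicle and red for Dex, with group means as bars and GRwt/wt vehicle replicate 1 ringed. Only the 3 GRwt/wt Dex libraries lie above 1, and the GRD/D Dex libraries lie between 0.313 and 0.516.

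Of the remaining immunophilins, neither passed the test with Dex. Fkbp4 was at 153, 87.7 and 80.6 CPM in GRwt/wt vehicle and at 97.5, 89.2 and 72.7 CPM under Dex, and the groups overlapped. Its log2 fold change was −0.31 (interval −0.74 to 0.12), and 0.04 without vehicle replicate 1 (interval −0.29 to 0.37). Ppid was at 6.79, 40.6 and 43.5 CPM in vehicle and at 41.4, 53.5 and 39.4 CPM under Dex, with a log2 fold change of 0.56 (interval −0.24 to 1.37) and 0.09 without that library (interval −0.19 to 0.37).

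The HSP90 genes and their partners did not pass the test either. Hsp90aa1, the stress-inducible HSP90 gene, was at 23.1, 283 and 243 CPM in GRwt/wt vehicle and at 196, 225 and 330 CPM under Dex (log2 fold change 0.45, and −0.07 without vehicle replicate 1). Hsp90ab1 was at 3471, 2006 and 1653 CPM in vehicle and at 2465, 1717 and 2026 CPM under Dex (−0.20, and 0.18 without that library). Both pairs of groups overlapped, and in both genes the sign of the difference was set by 1 library. The same held for Ptges3 (0.18, and −0.16 without it) and Stip1 (−0.16 and 0.03).

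Of the HSP70 system, Hspa8 was at 1477, 930 and 768 CPM in GRwt/wt vehicle and at 1240, 813 and 964 CPM under Dex (log2 fold change −0.07, and 0.24 without vehicle replicate 1). Dnajb1, a heat shock gene, was at 94.1, 68.2 and 50.6 CPM in vehicle and at 58.8, 58.9 and 59.7 CPM under Dex (−0.26, and −0.0026 without it). Bag1 was at 190, 144 and 128 CPM in vehicle and at 129, 101 and 136 CPM under Dex (−0.34, SE 0.13, unadjusted p = 0.023 in edgeR, adjusted p = 0.25), and its value without vehicle replicate 1 was −0.16 (adjusted p = 0.58). In all 3 genes the groups overlapped.

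Across the 9 genes, the log2 fold changes in GRwt/wt ran from −0.34 to 0.56 with all libraries, and from −0.16 to 0.24 without vehicle replicate 1, when their 95% intervals together spanned −0.40 to 0.50. No member other than Fkbp5 was called by edgeR or by DESeq2, and Bag1 was the only 1 of the 9 with an unadjusted p under 0.05 in edgeR. In the mutant genotypes, the 9 log2 fold changes with Dex lay between −0.05 and 0.18 in GRD/D, between −0.07 and 0.06 in GRL/L and between −0.06 and 0.15 in GRD+L/D+L. In GRD/D, Hsp90aa1 (259 and 258 CPM in vehicle, 312, 273 and 297 under Dex) and Hspa8 (770 and 780 CPM in vehicle, 830, 847 and 853 under Dex) did not overlap between the groups, at log2 fold changes of 0.18 and 0.12 (adjusted p = 1.0 for both), a share of the 9 genes near the 21.3% of all genes.

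**Figure D4:**
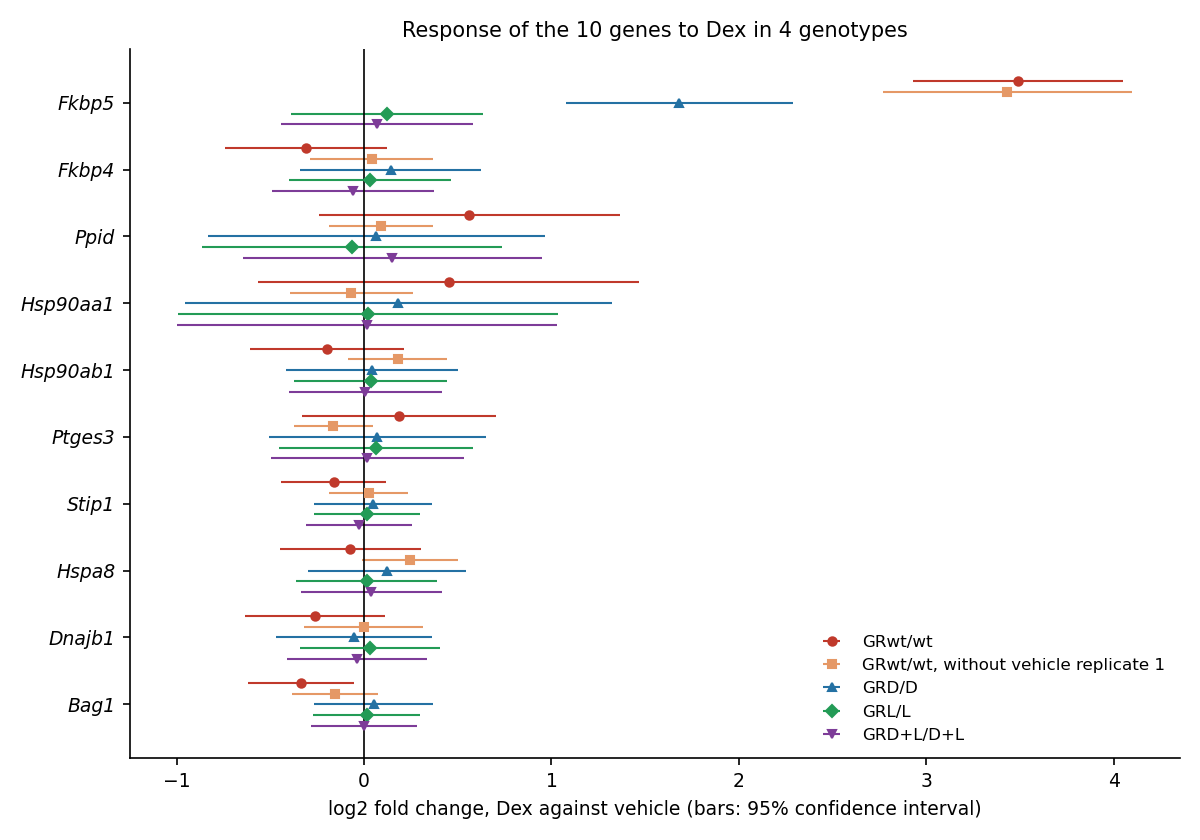
Log2 fold change with Dex against vehicle, with 95% confidence intervals from the edgeR fit as bars, for the 10 genes in the 4 genotypes, GRwt/wt being drawn with all libraries and without vehicle replicate 1. Fkbp5 lies at 3.49 in GRwt/wt and 1.68 in GRD/D, and the intervals of the other genes in GRwt/wt become narrow and include 0 once vehicle replicate 1 is left out.

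Between genotypes, Ppid and Bag1 stood apart in cells with the ligand-binding-domain change, although not every comparison passed the test. Ppid, which encodes cyclophilin 40 (chr3:79591342-79603650, plus strand), was higher in GRL/L vehicle at an adjusted p of 0.05. Bag1, the HSP70 exchange factor (chr4:40936398-40948294, minus strand), was lower by the same test in vehicle in both genotypes and under Dex in GRL/L. In GRL/L, Ppid was at 81.9, 78.8 and 76.3 CPM in vehicle and at 72.9, 77.8 and 75.8 CPM under Dex. In the cells with both substitutions it was at 61.1, 54.1 and 70.7 CPM in vehicle and at 71.0, 60.5 and 75.1 CPM under Dex. The lowest of these 12 libraries, at 54.1 CPM, was just above the highest of the 11 libraries of GRwt/wt and GRD/D, at 53.5 CPM, and such a separation, higher or lower, was seen in 6.74% of all genes.

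In vehicle, Ppid was higher in GRL/L than in GRwt/wt by 1.38 on the log2 scale (SE 0.39, edgeR adjusted p = 0.016) and was the only 1 of the 10 genes called there, where 7.78% of all genes were. GRwt/wt vehicle replicate 1 widened this difference: without it, Ppid was higher by 0.91 (SE 0.13, adjusted p = 0.00026), below the fold threshold but with less error. In GRD+L/D+L the difference was 1.03 (adjusted p = 0.066) and 0.57 without that library (adjusted p = 0.0059), and none of the 10 genes was called (8.32% of all genes were), although 2 of them had an unadjusted p under 0.05 in edgeR and DESeq2 called 1 (Ppid). Under Dex the difference of Ppid was 0.75 (GRL/L, adjusted p = 0.25) and 0.62 (both substitutions, adjusted p = 0.37), or 0.69 and 0.57 without GRwt/wt Dex replicate 1. Nearly the same values as with all libraries reached adjusted p of 0.00058 and 0.0025 once vehicle replicate 1 no longer entered the estimate of spread. Against GRD/D, Ppid was higher in GRL/L by 1.02 in vehicle (adjusted p = 0.26, 0.00053 without that library) and by 0.89 under Dex (adjusted p = 0.18, 0.00014 without it). In GRD+L/D+L it was above GRD/D by 0.67 in vehicle (adjusted p = 0.49) and 0.76 under Dex (adjusted p = 0.24). With 1 library left out, these adjusted p ran from 0.0060 to 0.94 and from 0.00048 to 0.41. The comparisons with GRwt/wt share its libraries, and those with GRD/D were added after the values had been seen.

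**Figure D5:**
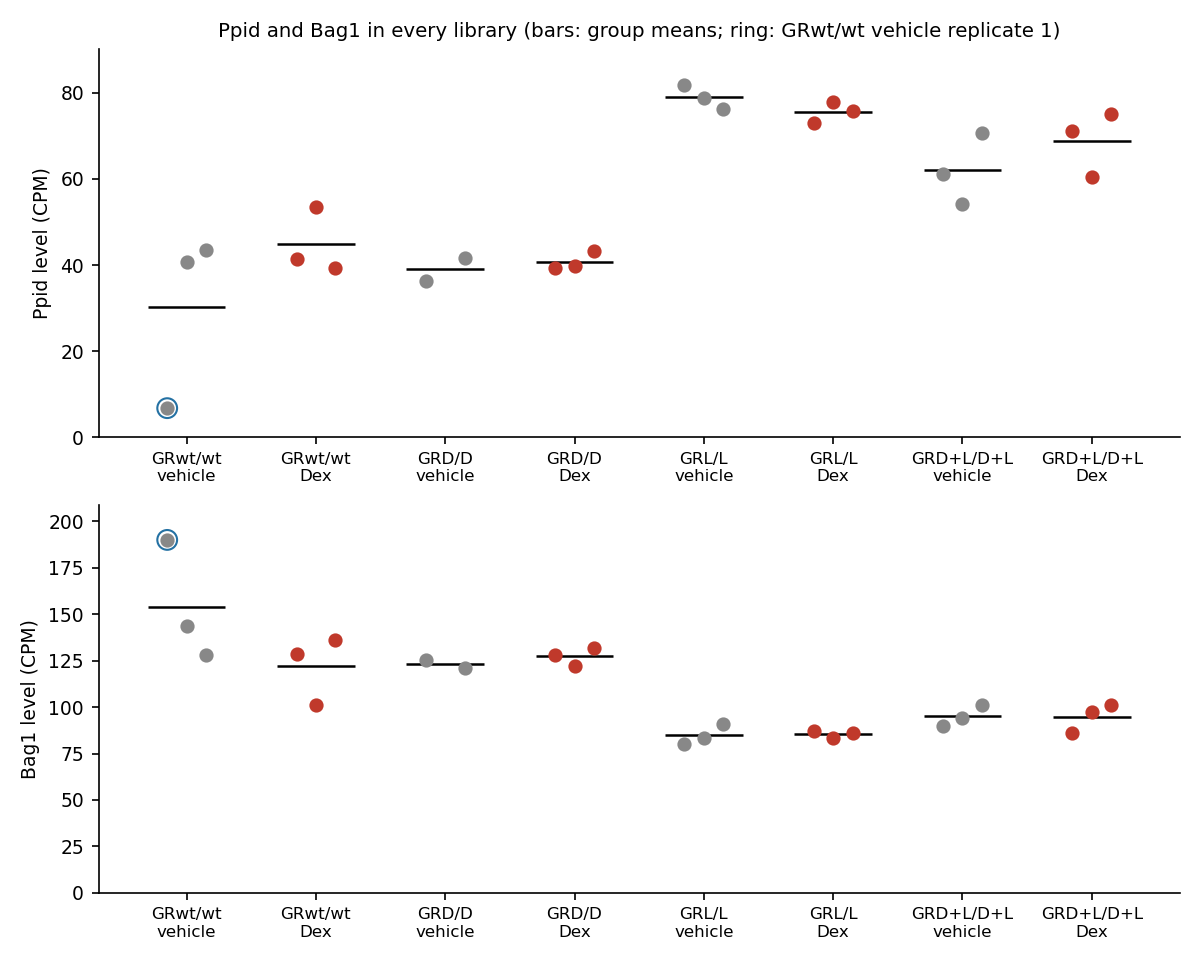
Ppid (upper panel) and Bag1 (lower panel) level in CPM in the 23 libraries by group, grey for vehicle and red for Dex, with group means as bars and GRwt/wt vehicle replicate 1 ringed. Ppid is at 54.1 to 81.9 CPM in the 12 GRL/L and GRD+L/D+L libraries and at 53.5 CPM or below in the others, and Bag1 is at 80.2 to 101 CPM in the former and 101 to 190 CPM in the latter.

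Bag1 was at 80.2, 83.5 and 90.7 CPM in GRL/L vehicle and at 87.0, 83.5 and 86.1 CPM under Dex, below every GRwt/wt and GRD/D library, which held 101 to 190 CPM, a separation that 16.2% of all genes showed, higher or lower. With both substitutions it was at 89.8, 94.2 and 101 CPM in vehicle and at 85.9, 97.4 and 101 CPM under Dex, where 1 library overlapped the lowest of GRwt/wt Dex. In vehicle, GRL/L differed from GRwt/wt by −0.86 on the log2 scale (SE 0.14, adjusted p = 0.00052), and by −0.68 without vehicle replicate 1 (adjusted p = 0.00043). For GRD+L/D+L these differences were −0.70 (SE 0.14, adjusted p = 0.0026) and −0.50 (adjusted p = 0.0039). Under Dex the value for GRL/L was −0.51 (adjusted p = 0.035, but 0.097 to 0.15 without GRwt/wt Dex replicate 1 or 3 or any 1 of the GRL/L Dex libraries). That for GRD+L/D+L was −0.36 (adjusted p = 0.13, 0.020 without GRwt/wt vehicle replicate 1). Against GRD/D under Dex, Bag1 differed by −0.57 where the receptor had the ligand-binding-domain change alone (adjusted p = 0.018) and by −0.43 where it had both (adjusted p = 0.065). With 1 GRL/L or GRD/D Dex library left out, the former adjusted p was 0.060 to 0.074, except 0.043 without GRD/D Dex replicate 2. In vehicle the differences from GRD/D were −0.54 for GRL/L (adjusted p = 0.080) and −0.37 for GRD+L/D+L (adjusted p = 0.23). All these differences were below the fold threshold. At an adjusted p of 0.05 alone, 4 of the 10 genes differed in GRL/L vehicle, where 23% of all genes did, and 1 in GRD+L/D+L vehicle, where 20.4% did. Under Dex 2 did so in the former genotype and 1 in the latter, Fkbp5 included, where 5.47% and 4.89% of all genes did. Without vehicle replicate 1 the numbers in vehicle were 4 and 2 (24.4% and 23.8% of all genes) and under Dex 5 and 3 (22.9% and 20.3%). The differences of Ppid and Bag1 were thus part of a large set of genes that differed between these genotypes. The neural markers summed to 6.49 to 19.5 CPM in the 12 libraries with the ligand-binding-domain change and to 27.2 to 67.5 CPM in the others, Nr3c1 itself was at 119 to 265 CPM in the former and 4.08 to 107 CPM in the latter, and their part in these differences was not tested.

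The other 2 genes past an adjusted p of 0.05 in GRL/L vehicle were Stip1 and Hspa8, both lower. Stip1 was at 103, 96.3 and 96.2 CPM there against 172, 126 and 117 CPM in GRwt/wt vehicle (log2 difference −0.49, adjusted p = 0.014, and −0.30 without vehicle replicate 1, adjusted p = 0.034). Hspa8 was at 688, 693 and 686 CPM against 1477, 930 and 768 CPM (−0.62, adjusted p = 0.019), and without that library its difference was −0.30 (adjusted p = 0.080). For neither gene did these vehicle groups overlap, which 38% of all genes also did not. In GRD+L/D+L vehicle Stip1 was at 109 to 130 CPM and Hspa8 at 839 to 865 CPM, both overlapping GRwt/wt. Under Dex the GRL/L differences were −0.32 for Stip1 (adjusted p = 0.17, 0.021 without vehicle replicate 1) and −0.53 for Hspa8 (adjusted p = 0.090, 0.0034 without it), and without GRwt/wt Dex replicate 1 they were −0.20 and −0.36. The remaining 5 genes, Fkbp4, Hsp90aa1, Hsp90ab1, Ptges3 and Dnajb1, did not pass an adjusted p of 0.05 in any comparison of a mutant with GRwt/wt that used all libraries, and without vehicle replicate 1 Ptges3 was lower in GRL/L vehicle (−0.35, adjusted p = 0.017).

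Between GRD/D and GRwt/wt none of the 9 genes passed the test. In vehicle their log2 differences ran from −0.62 to 0.50 with all libraries and from −0.26 to 0.12 without vehicle replicate 1, and under Dex from −0.25 to 0.23. None was called in either, where 0.00635% and 0.254% of all genes were. In vehicle, Fkbp4, Hspa8 and Bag1 had an unadjusted p under 0.05 in edgeR and none of the 9 genes did under Dex, and DESeq2 called none of them. Fkbp4, at 66.7 and 72.9 CPM in GRD/D vehicle, lay below the 80.6 to 153 CPM of GRwt/wt vehicle (log2 difference −0.62, adjusted p = 0.34), and without vehicle replicate 1 the difference was −0.26 (interval −0.62 to 0.10). Stip1 and Bag1 did not overlap between these groups either, and 23.2% of all genes did not.

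The members were set beside related genes. A list of 29 further genes, all tested, was made of GR chaperones and HSP90 co-chaperones, with the HSP90 family genes Hsp90b1 and Trap1 added. The list held none that passed an adjusted p of 0.05 with Dex in any genotype by edgeR or DESeq2. At an unadjusted p under 0.05 in edgeR there were 7 in GRwt/wt and 0 in each of the others. The share of all genes at this unadjusted cut is not given, here or for the lists below, so these counts have no background. In GRwt/wt its median log2 fold change was −0.12, against −0.01 over all genes, and 0.01 against −0.02 without vehicle replicate 1. In GRL/L vehicle 10 of the 29 were lower and 1 higher than in GRwt/wt at an adjusted p of 0.05, where 23% of all genes passed (2238 lower and 1390 higher), with a median log2 difference of −0.37 against −0.05 over all genes. Without vehicle replicate 1, 8 were lower and 1 higher (24.4% of all genes passed) and the median was −0.16, and without GRL/L vehicle replicate 3 only 6 were lower. A fit of these 2 genotypes alone left 3 lower and 0 higher. The lowest adjusted p belonged to the HSP70 exchange factor gene Hspbp1 (−0.79, adjusted p = 0.0037), to Nudc (−0.62, adjusted p = 0.0043) and to the immunophilin gene Fkbp8 (−0.72, adjusted p = 0.0049), whose differences without vehicle replicate 1 were −0.58, −0.41 and −0.43 in this order. In GRD+L/D+L vehicle 4 were lower, where 20.4% of all genes passed. Among them were Fkbp8 (−0.56, and −0.25 without vehicle replicate 1), Nudc (−0.45 and −0.23) and Pih1d1 (−0.59 and −0.33), none past the test without that library. This number depended on the processing. It was 10 with upper-quartile scaling, 7 with DESeq2, and 0 with no expression filter or with only the genotypes compared, and 0 were lower without GRwt/wt vehicle replicate 1 or without GRD+L/D+L vehicle replicate 3, but 8 without GRwt/wt vehicle replicate 2 and 9 without replicate 3. Under Dex no gene of the list passed in either genotype with all libraries, by edgeR or DESeq2, and 3 (GRL/L) and 1 (GRD+L/D+L) had an unadjusted p under 0.05 in edgeR. Without vehicle replicate 1 the numbers were 5 lower and 1 higher in GRL/L (22.9% of all genes passed) and 0 lower and 2 higher in GRD+L/D+L (Dnaja1 and Hsph1, both 0.27, where 20.3% of all genes passed).

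A list of 17 heat shock response genes other than the members, 8 of them shared with the former list, likewise held none that passed with Dex in any genotype by either tool, 3 having an unadjusted p under 0.05 in GRwt/wt in edgeR and 0 in the others. Of its small heat shock protein genes, Cryab was lower than in GRwt/wt in both genotypes with the ligand-binding-domain change, and Hspb8 and Hspb1 in GRL/L. In GRD/D the lowest log2 difference of any of the 17 from GRwt/wt was −1.06 in vehicle and −0.89 under Dex. None passed the test there. Cryab, which encodes alpha-B crystallin, had log2 differences from GRwt/wt of −2.02 in GRL/L vehicle (adjusted p = 0.0012) and −2.13 under Dex (adjusted p = 0.0038), while those of GRD+L/D+L were −1.62 and −1.68 (adjusted p = 0.0058 and 0.016). Hspb8 differed in GRL/L by −1.02 in vehicle and −0.92 under Dex (adjusted p = 0.0054 and 0.030), and Hspb1 under Dex by −2.20 (adjusted p = 0.040). When GRwt/wt vehicle replicate 1 was left out, the vehicle differences were −1.72 and −1.31 for Cryab (adjusted p = 0.0031 and 0.017) and −0.85 for Hspb8, which was then below the fold threshold (adjusted p = 0.017). The mitochondrial co-chaperonin gene Hspe1 differed in vehicle by −0.77 for GRL/L (adjusted p = 0.00088) and by −0.57 for GRD+L/D+L (adjusted p = 0.0068), and without that library by −0.68 and −0.46. In all, 6 of the 17 were lower and 0 higher in GRL/L vehicle and 2 lower and 0 higher in GRD+L/D+L vehicle, where 23% and 20.4% of all genes passed. Past the fold threshold as well, 3 were lower in GRL/L vehicle, where 7.78% of all genes were called (448 lower), and 1 without GRwt/wt vehicle replicate 1. With GRL/L vehicle replicate 3 left out, the number lower was 3, and with only the genotypes compared in the fit it was 3 for GRL/L while GRD+L/D+L had 0. Under Dex 3 passed in GRL/L, all lower (5.47% of all genes), but 1 whichever GRL/L Dex library was left out, 1 without GRwt/wt Dex replicate 1 or 3, and 0 with only the genotypes compared. In GRD+L/D+L 1 passed under Dex (4.89% of all genes), and 0 were lower without GRD+L/D+L Dex replicate 2 or GRwt/wt Dex replicate 3, or with only the genotypes compared. Leaving out GRwt/wt vehicle replicate 1 also gave higher genes, of which GRL/L had 1 under Dex, while GRD+L/D+L had 2 under Dex and 1 in vehicle. In this order, 22.9%, 20.3% and 23.8% of all genes passed in these comparisons, higher or lower. The part of the Des-rich libraries, GRwt/wt vehicle replicate 1 and Dex replicate 1, in these differences was not tested further.

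The genes whose pattern over the 23 libraries was most like that of Fkbp5, by Pearson correlation of log2 CPM among 13240 genes with a mean of at least 1 CPM, were Zbtb16 (r = 0.933), Tsc22d3 (0.893), Per1 (0.872), Snx1 (0.864) and Wee1 (0.859). Zbtb16, Tsc22d3 (which encodes GILZ) and Per1 are known GR targets. Zbtb16 had a mean of only 1.38 CPM, too low for its fold change to be read closely. Tsc22d3 and Per1 rose in GRwt/wt with Dex by 1.92 and 1.85 on the log2 scale (adjusted p = 0.0027 and 0.0001), and in GRD/D their values were 0.18 and 1.35 (adjusted p = 1.0 and 0.10). They were picked for likeness to Fkbp5 over these same libraries, so their rise is not separate evidence. The 23 points share the groups of the design, and 3 of these 5 genes were among the 5 nearest without GRwt/wt vehicle replicate 1. For Hsp90aa1 the nearest genes were Hsp90b1, Ncl, Eif4g2, Vps35 and Canx, with r from 0.985 to 0.989. Without GRwt/wt vehicle replicate 1 r fell to 0.771 to 0.854, and 3 of these 5 were again among the 5 nearest. Among the members themselves, without that library, Ppid and Bag1 had r = −0.928 and Stip1 and Hspa8 r = 0.878, whereas Fkbp5 had r between −0.524 (Ppid) and 0.532 (Hspa8) with the other 9.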

How the data were processed

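RNA was measured in the 23 MEF libraries described above. The authors deposited raw read counts per Ensembl gene. They prepared TruSeq libraries, sequenced them on an Illumina NovaSeq, mapped the reads to mm10 (GRCm38) and counted uniquely mapped reads. The submitters' processing notes name HISAT2 2.1.0, featureCounts 2.0.0, FastQC and DESeq2. Strandedness and the annotation release are not given in the sources used here, so counts of overlapping genes are uncertain, including the snoRNA genes within Hspa8.

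Counts were tested in R 4.3.3 with edgeR 4.0.16 (TMM, filterByExpr, quasi-likelihood F-test, Benjamini-Hochberg adjustment over the 15748 genes left), with all libraries in 1 fit and 1 mean per group. DESeq2 1.42.0, other scalings and filters, left-out libraries and a replicate block were alternatives. Same-numbered vehicle and Dex libraries deviated together in GRL/L (r = 0.32 to 0.64) and GRD+L/D+L (0.65 to 0.89). In GRwt/wt and GRD/D only the pair numbered 1 did so (r = 0.55 and 0.28), and vehicle replicate 2 correlated most with Dex replicate 3 (0.54 and 0.45), so the numbers were not taken to pair those libraries. No libraries were duplicates. Standard errors are |log2 fold change| divided by the square root of F. Counting error is small at these depths. The tests were tried on simulated counts with the same spread for every gene and no library set apart. That setting does not cover the effect of GRwt/wt vehicle replicate 1. Named were the 10 members, Nr3c1, up to 3 genes per list and comparison with the smallest adjusted p, and the 5 genes nearest to Fkbp5 and to Hsp90aa1. The members and lists were chosen with earlier results of these data known. Symbols came from GENCODE M21, which held 55227 of the 55487 identifiers.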

Additional observations from a re-analysis of the deposited data

Results flagged for a closer look

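Fkbp5 was the only member whose response to Dex differed between genotypes by a test of the difference itself. Its log2 fold change was smaller in GRL/L than in GRwt/wt (difference −3.37, SE 0.35, edgeR adjusted p = 0.00036). The same held for GRD+L/D+L (difference −3.42, SE 0.35, adjusted p = 0.00029), but that call was lost when only these genotypes were fitted (−3.44, adjusted p = 0.31). Both comparisons share the 6 GRwt/wt libraries.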

How the results depend on the processing

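The rise of Fkbp5 with Dex in GRwt/wt was between 3.23 and 4.16 on the log2 scale under every alternative tried, and its difference from GRL/L was between −4.04 and −3.11. For the other 9 genes, none of 1620 values of a Dex response or of a difference between responses was called. The exceptions below are given as called members of the 10 or as log2 values of Fkbp5, and the cause of each was not tested.

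With DESeq2 the number of called members went from 0 to 1 for Dex in GRD/D (Fkbp5, 1.68), for its difference from GRwt/wt (Fkbp5, −1.84) and for GRD+L/D+L vehicle (Ppid). With only the libraries of the genotypes compared in the fit, the number went from 1 to 0 for Dex in GRwt/wt (Fkbp5, 3.50), for the difference of GRD+L/D+L from GRwt/wt (Fkbp5, −3.44, adjusted p = 0.31), for GRD/D under Dex (Fkbp5, −1.76) and for GRL/L vehicle (Ppid). It went from 0 to 1 for Dex in GRD/D (Fkbp5, 1.68) and for the difference between GRD/D and GRL/L (Fkbp5, 1.55, adjusted p = 0.0050), and Ppid was called in GRL/L against GRD/D vehicle (1.00, adjusted p = 0.0001). With an adjusted p alone, 4 members were called in GRL/L vehicle, 1 in GRD+L/D+L vehicle and 2 in GRL/L under Dex, and Bag1 in GRL/L against GRD/D under Dex. Upper-quartile scaling called 2 in GRL/L vehicle (Bag1 and Ppid) and put Fkbp5 in GRD/D vehicle at −0.045 against GRwt/wt. With GRwt/wt vehicle replicates 1 and 3 both left out, the only GRwt/wt vehicle library was replicate 2, the lowest of all 23 for Fkbp5. Only sizes are therefore given here. Fkbp5 changed with Dex in GRD/D by 1.68, and this response differed from that of GRwt/wt by −2.48. Ppid in GRL/L vehicle was higher than in GRwt/wt by 0.94 and higher than in GRD/D by 1.02. Fkbp5 in vehicle then differed from GRwt/wt by 0.48 (GRL/L) and 0.52 (GRD+L/D+L), and the Dex values in GRwt/wt were −0.19 for Hsp90aa1, 0.033 for Hsp90ab1, −0.28 for Ptges3 and 0.10 for Hspa8.

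Leaving out 1 library at a time moved the number of called members between 0 and 1 for GRD/D under Dex (Fkbp5 −1.88 to −1.69, lost without GRD/D Dex replicate 3), for the difference of GRD/D from GRwt/wt (Fkbp5 −2.22 to −1.55, gained without GRwt/wt vehicle replicate 3), for GRL/L vehicle (Ppid lost without GRwt/wt vehicle replicate 1) and for GRD+L/D+L vehicle (Ppid gained without GRwt/wt vehicle replicate 2 or 3). Values of Fkbp5 near 0 changed sign: Dex in GRD+L/D+L ran from −0.12 to 0.25 and its difference from GRL/L from −0.24 to 0.13. In vehicle, the difference from GRwt/wt ran from −0.23 to 0.46 for GRD/D, from −0.45 to 0.23 for GRL/L and from −0.42 to 0.27 for GRD+L/D+L, and that of GRD+L/D+L from GRD/D ran from −0.37 to 0.0040. The Dex values of the chaperones in GRwt/wt ran from −0.46 to 0.040 for Fkbp4, from −0.068 to 0.92 for Hsp90aa1, from −0.36 to 0.18 for Hsp90ab1, from −0.16 to 0.47 for Ptges3, from −0.25 to 0.025 for Stip1 and from −0.21 to 0.24 for Hspa8. The difference of GRD+L/D+L from GRwt/wt ran from −0.44 to 0.024 for Hspa8 in vehicle and from −0.18 to 0.049 for Stip1 under Dex.

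The replicate block, which in GRwt/wt and GRD/D joins numbers that do not pair the libraries, changed no call of the 10 members, although over all genes the number called rose from 25 to 199 for Dex in GRwt/wt, from 0 to 7 for Dex in GRD/D, from 4 to 22 for the difference of GRL/L from GRwt/wt and from 4 to 16 for that of GRD+L/D+L. With it, Fkbp5 responded to Dex by 3.57 in GRwt/wt (adjusted p = 0.00047), 1.73 in GRD/D, and 0.12 and 0.07 in the genotypes with the ligand-binding-domain change. The numbers of genes called over the whole table depended far more on the libraries, the tool and the threshold than the members did. For Dex in GRwt/wt it was 25, and between 0 and 374 under the alternatives. For GRL/L vehicle it was 1225 and ran from 705 to 3628, for GRD+L/D+L vehicle 1311 and from 111 to 3216, and under Dex 408 (104 to 1193) and 433 (15 to 1076). The 3628 and 3216 are the numbers at an adjusted p alone, without the fold threshold. With 2 or 3 libraries per group, an adjusted p over 15748 genes leaves small changes of the chaperones undetected.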

Other observations

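A list of 14 genes of the endoplasmic reticulum held its chaperones and their co-factors, with Ddit3, a stress-induced transcription factor, and Hsp90b1, which the list of GR chaperones also holds. With Dex none of the 14 passed an adjusted p of 0.05 in any genotype by edgeR or DESeq2 (3 had an unadjusted p under 0.05 in GRwt/wt in edgeR, and 0 in each other genotype). Between genotypes in vehicle, 5 of the 14 were lower in GRL/L than in GRwt/wt and 0 higher, where 23% of all genes passed, with a median log2 difference of −0.22 against −0.05 over all genes, or −0.36 against −0.04 without GRwt/wt vehicle replicate 1. For GRD+L/D+L, 4 were lower and 0 higher (20.4% of all genes passed), and 2 were lower without GRD+L/D+L vehicle replicate 2 or with no expression filter. With only the genotypes compared in the fit, 4 were lower for GRL/L while GRD+L/D+L had 0. Sdf2l1, a co-factor of the luminal HSP70, had the largest difference of those named, −1.43 for GRL/L (adjusted p = 0.0022) and −1.21 for GRD+L/D+L (adjusted p = 0.0077). The J-protein gene Dnajb11 differed by −0.54 and −0.50 (adjusted p = 0.0010 and 0.0021) and the stress-induced secreted factor gene Manf by −0.61 and −0.42 (adjusted p = 0.0013 and 0.015). Without GRwt/wt vehicle replicate 1 the values were −1.45 and −1.22 for Sdf2l1, −0.52 and −0.47 for Dnajb11, and −0.56 and −0.35 for Manf. In GRD/D vehicle the lowest log2 difference of any of the 14 from GRwt/wt was −0.95, or −0.96 without that library. Under Dex it was −0.09, and none passed the test in GRD/D. Under Dex 1 of the 14 was lower in GRL/L (Dnajb11, −0.35, adjusted p = 0.036), where 5.47% of all genes passed, or 22.9% without GRwt/wt vehicle replicate 1. There were 3 by DESeq2 and 3 without GRwt/wt vehicle replicate 1 (Dnajb11, Manf and Calr), but 0 whichever GRL/L Dex library was left out, and 0 without GRwt/wt Dex replicate 1 or 3, with no expression filter or with only the genotypes compared. For GRD+L/D+L under Dex 0 passed, and 1 without GRwt/wt vehicle replicate 1 (Dnajb11, −0.28), where 4.89% and 20.3% of all genes passed. By DESeq2 1 passed.

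Of 13 other FK506-binding protein genes, 2 of them on the list of GR chaperones (Fkbp8 and Fkbpl), 12 were tested, and none passed with Dex in any genotype by edgeR or DESeq2, 2 having an unadjusted p under 0.05 in GRwt/wt in edgeR and 0 in the others. In vehicle 4 were lower in GRL/L, or 1 without GRwt/wt vehicle replicate 1, where 23% and 24.4% of all genes passed. There were 2 whichever GRL/L vehicle library was left out or with no expression filter, and 1 with only the genotypes compared. For GRD+L/D+L 2 were lower, or 0 without GRwt/wt vehicle replicate 1, where 20.4% and 23.8% of all genes passed. There were 4 with upper-quartile scaling or DESeq2, 1 with RLE scaling, and 0 with no expression filter or with only the genotypes compared, and leaving out other single libraries moved the number between 0 (without GRD+L/D+L vehicle replicate 1 or 3) and 4 (without GRwt/wt vehicle replicate 3). Under Dex 0 passed in GRL/L, and 2 without GRwt/wt vehicle replicate 1 (Fkbp10 and Fkbp8), where 5.47% and 22.9% of all genes passed. Fkbp8, which anchors to mitochondria, was the 1 that passed both ways in GRL/L (−0.72, adjusted p = 0.0049, and −0.43, adjusted p = 0.0073, without that library). Fkbp1a, the FKBP12 gene, differed by −0.80 in GRL/L vehicle (adjusted p = 0.013), and by −0.53 without that library (adjusted p = 0.058).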
